A study of Mus musculus with 4 samples.

Results

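RNA 5′ ends within repeats were compared between the fully grown mouse oocyte and the 2-cell embryo, the interval in which the egg is fertilised and the embryonic genome is first transcribed. The comparison takes 2 of the 4 samples of the series and 5 of its 11 runs. The oocyte sample was read in 3 runs, numbered 1.1, 1.2 and 2, and the 2-cell sample in 2 runs, numbered 1 and 2. The strain of both samples is F1 (C57BL/6J X CBA/H), with no treatment named, and the 2-cell embryos are labelled 48 h. NanoCAGE, which enriches capped 5′ ends from small amounts of total RNA, was used on both. Runs were taken as repeat runs of 1 sample per stage, because the labels do not tie them to separate pools of cells or animals, so no p-value or SD between stages can be given. A family, class or region is said to have risen or fallen only where the mean of the 2-cell runs differed at least 2-fold from the mean of the oocyte runs and the runs of the stages did not overlap.

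Repeats make up a large part of the mouse genome, and several kinds carry promoters of their own. LTR elements, the remains and relatives of retroviruses, hold a promoter in each long terminal repeat. The MT and ORR1 elements of the MaLR family are known as promoters of the growing oocyte, and MERVL, an ERVL element with MT2 repeats, is known as a marker of the 2-cell stage. LINE-1 (L1) elements copy themselves through RNA from an internal promoter, and the short SINE elements borrow L1 proteins. Satellites are tandem repeats of centromeric and pericentromeric chromatin. The families in the count table are not split into elements, so MERVL, MT and ORR1 were not analysed singly here.

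The runs held 563012, 1919263 and 377629 repeat counts in the oocyte and 232146 and 245473 in the 2-cell embryo, over 47 families. A share is the percent of a run's counts. Counting error alone gives shares above 1% an exact (Clopper-Pearson) 95% interval of at most 0.187 percentage points to either side, and no molecular identifiers are named that would separate amplified copies. The transposon families (LINE, SINE, LTR and DNA elements) took 37.9%, 71.1% and 72.8% of the oocyte runs 1.1, 1.2 and 2, and 91.6% and 82.2% of the 2-cell runs 1 and 2. Ribosomal RNA took 44.9%, 14.0% and 10.3% of the oocyte runs and 4.53% and 12.8% of the 2-cell runs. Both sums therefore differ between runs of the oocyte, so families are given as a share of all counts and the main transposon families also as a share of transposon counts. Read names place the 5 runs on 4 sequencing runs, none of which held both stages, so the stages cannot be told apart from the sequencing runs.

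ERVL had the largest rise of the transposon families whose counts in the 5 runs added to 100 or more. It took 0.403%, 2.30% and 1.60% of all counts in oocyte runs 1.1, 1.2 and 2, and 5.96% and 13.6% in 2-cell runs 1 and 2. The lowest 2-cell run was 2.59 times the highest oocyte run, and the rise of the mean was 6.81-fold. Among transposon counts ERVL had 1.06%, 3.23% and 2.20% in the oocyte and 6.50% and 16.5% at the 2-cell stage, a 5.32-fold rise. Leaving out each run in turn gave ratios from 4.15 (without 2-cell run 2) to 9.74 (without oocyte run 1.2) on the scale of all counts, and the rise was called in each of 11 alternatives.

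MaLR, the family of the maternal MT and ORR1 elements, changed its standing with the denominator. Of all counts it took 12.9%, 38.3% and 36.2% in the oocyte runs and 15.6% and 16.5% in the 2-cell runs, which overlap because of oocyte run 1.1. Of transposon counts it took 34.1%, 53.9% and 49.7% in the oocyte and 17.0% and 20.1% at the 2-cell stage. On this second scale all oocyte runs lay above both 2-cell runs, and MaLR fell 2.47-fold. Oocyte run 1.1, which held the most rRNA, was low in MaLR on the first scale and nearer to the other oocyte runs on the second.

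Within the LTR class the make-up of each run can be read without the other repeats. MaLR held 64.3%, 75.1% and 74.4% of LTR counts in the oocyte and 42.2% and 36.8% at the 2-cell stage, a 1.81-fold difference with the runs apart but under the 2-fold limit. ERVL rose 7.09-fold on this scale, from 2.00%, 4.51% and 3.30% to 16.1% and 30.3%. ERVK, which includes the IAP and ETn elements, held 27.9%, 17.9% and 19.3% in the oocyte and 36.3% and 30.03% at the 2-cell stage. All 2-cell runs were above all oocyte runs for ERVK, at a ratio of 1.53. ERV1 held 5.78%, 2.42% and 2.88% against 5.27% and 2.87%, with the runs overlapping.

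**Figure D1:**
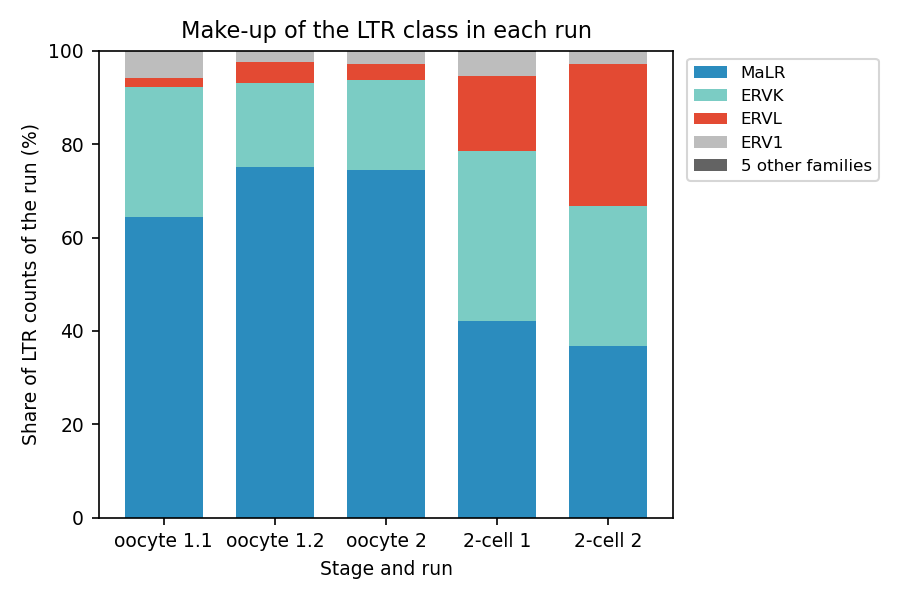
Stacked bars give the share of each LTR family in the LTR counts of a run (%, y axis) for the 3 oocyte and 2 2-cell runs (x axis). MaLR is 64.3% to 75.1% of the oocyte bars and 36.8% to 42.2% of the 2-cell bars, ERVL grows from at most 4.51% to 16.1% and 30.3%, and the other 5 families are too small to see.

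The ratio of one family to another inside the same run needs no denominator at all. There were 0.0311, 0.0601 and 0.0443 ERVL counts per MaLR count in oocyte runs 1.1, 1.2 and 2, and 0.382 and 0.824 in 2-cell runs 1 and 2. This ratio rose 13.3-fold, and no oocyte run came near a 2-cell run. ERVK counts per MaLR count were 0.434, 0.238 and 0.260 in the oocyte and 0.861 and 0.817 in the 2-cell embryo, a 2.70-fold rise. ERVL counts per ERVK count were 0.0718, 0.252 and 0.170 in the oocyte and 0.443 and 1.009 at the 2-cell stage, a 4.40-fold rise. In 2-cell run 2 ERVL and ERVK thus stood at about equal counts. Against L1 neither family separated the stages. ERVL counts per L1 count were 0.0427, 0.286 and 0.148 in the oocyte and 0.198 and 0.924 at the 2-cell stage, with overlap. ERVK counts per L1 count were 0.595, 1.13 and 0.870 against 0.446 and 0.917, also overlapping. The pairs were chosen after the shares had been seen.

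ERVK itself had 5.61%, 9.11% and 9.41% of all oocyte counts and 13.4% and 13.5% of all 2-cell counts. The runs did not overlap, and the ratio of 1.67 was under the limit. Among transposon counts ERVK had 14.8%, 12.8% and 12.9% against 14.7% and 16.4%, and the runs overlapped. ERV1, which includes gammaretrovirus-like elements, had 1.16%, 1.24% and 1.40% against 1.95% and 1.29% of all counts, also overlapping. Of the 9 LTR families, 4 rose and none fell on the scale of all counts, where 31.9% of all 47 families rose and 8.51% fell. On that of transposon counts 4 rose and 1 fell, where 20.6% of the 34 transposon families rose and 2.94% fell. Of the 5 LTR families with at least 100 counts, 1 rose on each scale. Beside ERVL the LTR families that rose were ERV1?, ERVL? and Gypsy?. They held 90, 30 and 28 counts over both stages and are named after their values were seen.

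Over all families the background of such calls was high. Of the 47 families, 15 rose (31.9%) and 4 fell (8.51%) as a share of all counts, and the runs of 25 overlapped. Among the 38 families whose counts in the 5 runs added to 100 or more, 9 rose (23.7%) and 4 fell (10.5%). Of the 34 transposon families, 7 rose (20.6%) and 1 fell (2.94%) as a share of transposon counts. Of the 25 transposon families with at least 100 counts, ERVL alone rose (4%) and MaLR alone fell (4%) on this scale. The median log2 ratio of 2-cell to oocyte means was 0.52 over the 38 families as shares of all counts and 0.24 over the 25 as shares of transposon counts. It was 0.33 with rRNA left out of the total and -0.10 with median-of-ratios size factors, so a family's ratio is best read against these centres.

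**Figure D2:**
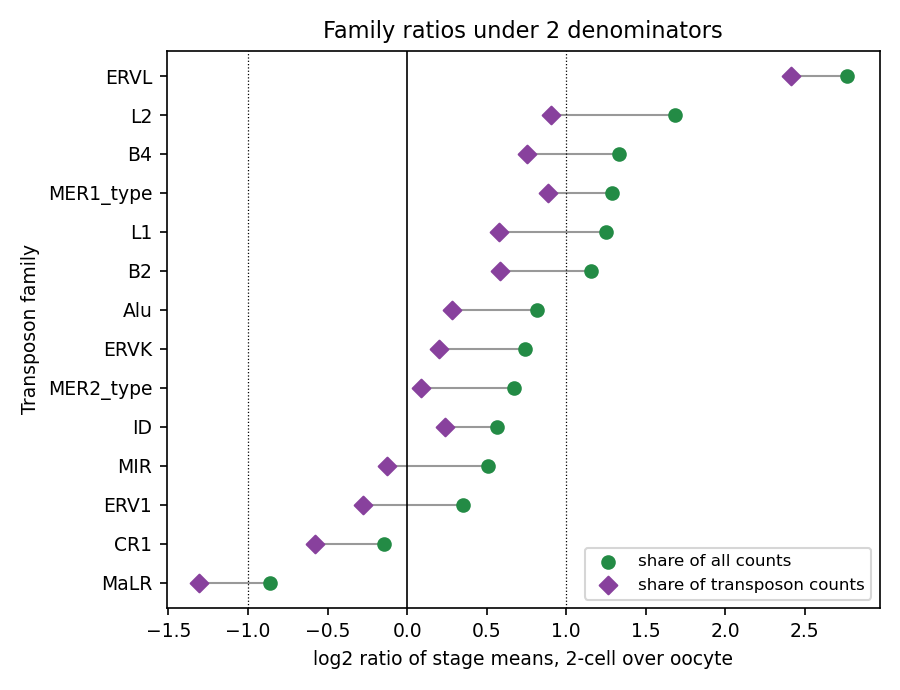
Each of 14 transposon families (y axis) has its log2 ratio of stage means, 2-cell over oocyte (x axis), as a share of all counts (circles) and of transposon counts (diamonds), with dotted lines at 2-fold. Every family lies further left on the second scale, where ERVL (5.32-fold) stays past the right line and MaLR (0.404) passes the left one.

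Among LINE elements, L1 took 9.43%, 8.05% and 10.8% of all counts in the oocyte runs and 30.1% and 14.7% in the 2-cell runs. Both 2-cell runs were above every oocyte run, and L1 rose 2.38-fold. As a share of transposon counts L1 had 24.8%, 11.3% and 14.9% in the oocyte and 32.9% and 17.9% at the 2-cell stage, where oocyte run 1.1 lay above 2-cell run 2. Without 2-cell run 1 the ratio on the first scale was 1.56 and not called. L1 counts per MaLR count rose 3.42-fold, from 0.729, 0.210 and 0.299 to 1.93 and 0.891. L1 counts per B2 count were 4.57, 3.05 and 3.59 in the oocyte and 5.64 and 2.40 in the 2-cell embryo, with overlap.

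The older LINE families are fossils that no longer move. L2 took 0.896%, 0.495% and 0.516% of all counts in the oocyte and 2.12% and 1.96% at the 2-cell stage, a 3.21-fold rise. Among transposon counts oocyte run 1.1 stood at 2.36%, level with 2.31% and 2.38% in the 2-cell runs, whereas oocyte runs 1.2 and 2 had 0.695% and 0.708%. CR1 had 0.0757%, 0.241% and 0.374% against 0.306% and 0.110% of all counts. RTE had 0.0188%, 0.0931% and 0.203% against 0.0728% and 0.0521%. Neither CR1 nor RTE separated the stages, and both spread more widely inside the oocyte than between the means. In all, 2 of the 4 LINE families rose as shares of all counts, against 31.9% of all 47 families. No LINE family rose or fell as a share of transposon counts.

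The SINE families B4 and B2 rose and lay close to each other. B4, a fusion of ID and B1 sequences, took 2.05%, 2.91% and 2.84% of all oocyte counts and 7.19% and 5.92% of all 2-cell counts, a 2.52-fold rise. B2, derived from transfer RNA, took 2.06%, 2.64% and 3.01% against 5.33% and 6.13%, a 2.23-fold rise. On the scale of transposon counts both stayed higher in every 2-cell run than in any oocyte run, at ratios of 1.69 for B4 and 1.499 for B2, and neither was called. B1, listed under the family name Alu and derived from the 7SL RNA, had 1.61%, 2.67% and 2.66% against 3.64% and 4.50% of all counts. Its runs were apart at a ratio of 1.76, and as a share of transposon counts they overlapped, at 4.24%, 3.76% and 3.65% against 3.97% and 5.47%.

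MIR, an ancient SINE, did not move as L2, an ancient LINE, did. It took 0.979%, 1.07% and 1.13% of all counts in the oocyte and 1.88% and 1.13% in the 2-cell embryo, a ratio of 1.42 that became 0.914 among transposon counts. L2 counts per MIR count were 0.914, 0.463 and 0.457 in the oocyte and 1.13 and 1.73 at the 2-cell stage. That ratio rose 2.34-fold, although oocyte run 1.1 lay nearer to 2-cell run 1 than to the other oocyte runs. ID, a family related to the BC1 RNA, had 0.0748%, 0.532% and 0.738% against 0.612% and 0.715% of all counts, with the runs overlapping. Of the 6 SINE families, 2 rose and none fell on the scale of all counts, where 31.9% of all 47 families rose. No SINE family was called on the scale of transposon counts.

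DNA transposons no longer move in the mouse and made up a small part of every run. MER1_type had 0.212%, 0.860% and 1.14% of all oocyte counts and 2.19% and 1.41% of all 2-cell counts, a 2.44-fold rise. Its ratio was 1.80 without oocyte run 1.1 and 1.91 without 2-cell run 1, and neither was called. Mariner rose 2.43-fold on 10, 120 and 32 oocyte counts and 28 and 36 2-cell counts. Its ratio was 1.81 without oocyte run 1.1. MER2_type had 0.277%, 0.341% and 0.445% against 0.697% and 0.433%, and Tip100 had 0.122%, 0.0807% and 0.0805% against 0.173% and 0.0729%, both with overlap.

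Tigger showed how far a mean can rest on 1 run. It had 12, 92 and 34 counts in oocyte runs 1.1, 1.2 and 2, and 8 and 211 counts in 2-cell runs 1 and 2. Its stage means differed 8.42-fold, but 2-cell run 1 at 0.00345% lay inside the oocyte range of 0.00213% to 0.00900%. Without 2-cell run 1 the ratio was 16.2, and the lowest ratio with any run left out was 0.649. Of the 15 DNA transposon families, 5 rose on the scale of all counts, 2 of them with at least 100 counts, and none fell. That is near the background, where 15 of 47 families rose (31.9%). On the scale of transposon counts 3 DNA transposon families rose, none of them with at least 100 counts, and none fell. That too is near the background, where 20.6% of all 34 transposon families rose.

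**Figure D3:**
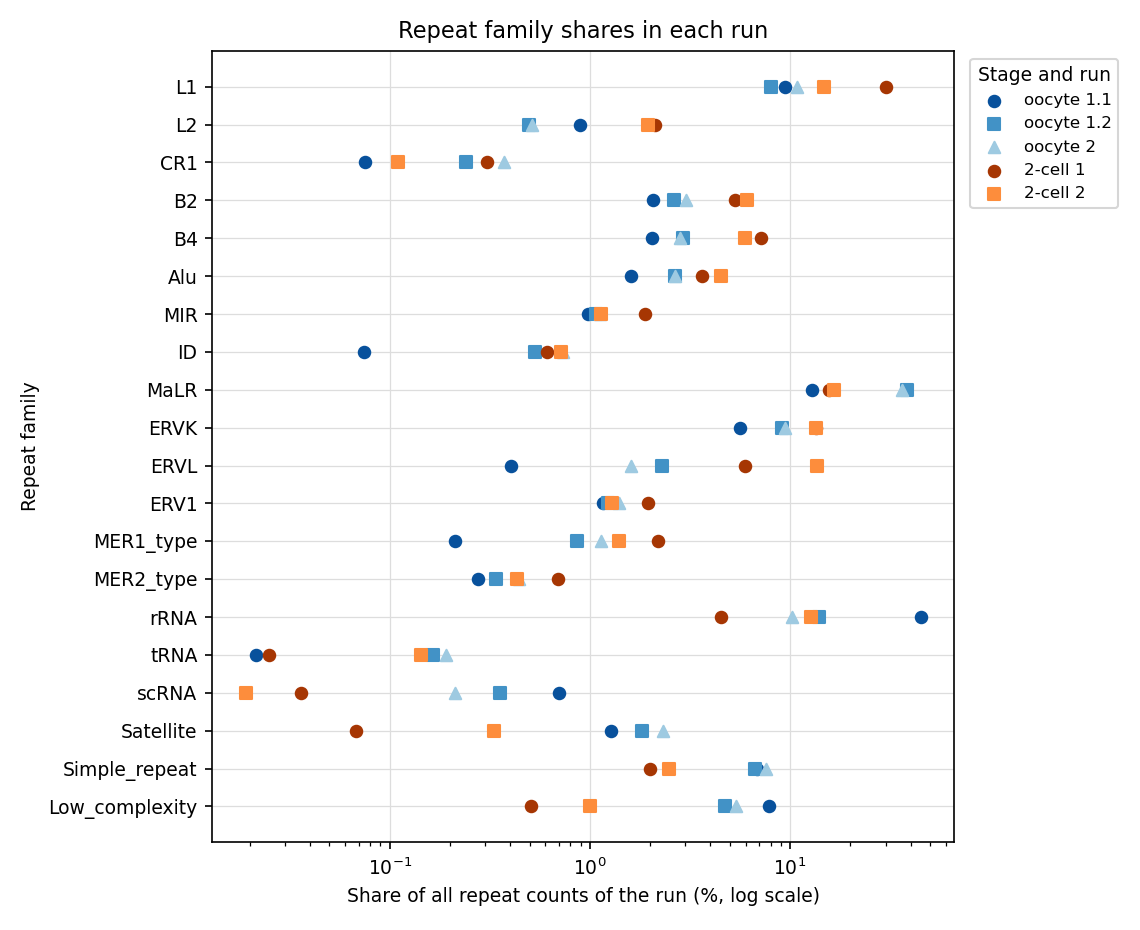
Points give the share of all repeat counts in each run (%, log scale, x axis) for 20 families (y axis), with oocyte runs in blue and 2-cell runs in orange. The 2-cell points lie to the right of all oocyte points for L1, L2, B2, B4, Alu, ERVK, ERVL and MER1_type, and barely so for MIR. They lie to the left for scRNA, Satellite, Simple_repeat and Low_complexity.

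Satellites, simple repeats, low-complexity sequence and 1 family of RNA genes moved the other way. Satellites fell 9.04-fold, from 1.28%, 1.81% and 2.33% of all counts in the oocyte runs to 0.0676% and 0.332% in the 2-cell runs. Simple repeats, short motifs in tandem, fell 3.16-fold, from 6.86%, 6.72% and 7.61% to 1.99% and 2.49%. Low-complexity sequence fell 7.93-fold, from 7.84%, 4.74% and 5.36% to 0.507% and 1.003%. The oocyte runs were all high and the 2-cell runs all low in these 3 families, and each was called in all 9 alternatives. The small cytoplasmic RNAs (scRNA) fell 15.3-fold, from 0.705%, 0.354% and 0.213% to 0.0362% and 0.0191%, and were also called in all 9. Without 2-cell run 2 the satellite ratio was 0.0374, and without 2-cell run 1 it was 0.184.

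These falls were not of equal size, which ratios within a run show directly. There were 0.187, 0.270 and 0.306 satellite counts per simple repeat count in the oocyte and 0.0340 and 0.134 at the 2-cell stage, a 3.04-fold fall. Low-complexity counts per simple repeat count fell 2.59-fold, from 1.14, 0.706 and 0.704 to 0.255 and 0.403. Simple repeat counts per B1 count fell 5.84-fold, from 4.26, 2.51 and 2.86 to 0.546 and 0.553. The 2-cell runs were nearly identical in this last ratio, although they held 4.53% and 12.8% rRNA.

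The other RNA genes did not separate the stages. Ribosomal RNA had a ratio of 0.375 with overlapping runs, since oocyte run 2 held less of it than 2-cell run 2. Transfer RNA, at 0.0215%, 0.166% and 0.191% against 0.02498% and 0.143%, was low in run 1.1 of the oocyte and run 1 of the 2-cell embryo. The signal recognition particle RNA (srpRNA) had 0.0838%, 0.0104% and 0.00741% against 0.0108% and 0.0167%. The small nuclear RNAs of the spliceosome (snRNA) had 0.0108%, 0.00146% and 0.00132% against 0.00948% and 0.00407%. In both of the latter oocyte run 1.1 was the highest of the 5 runs.

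Of the unclassified families, 2 were almost empty in the oocyte. The family named Genie? had 0, 1 and 2 counts in oocyte runs 1.1, 1.2 and 2 and 362 and 166 counts in 2-cell runs 1 and 2. The mean of runs rose 576-fold, with ratios from 349 (without 2-cell run 1) to 4291 (without oocyte run 2). Pooled over runs the ratio was 1054, with an exact Poisson 95% interval of 359 to 5127 that covers counting error only. The family named Y-chromosome had 0, 8 and 1 oocyte counts and 102 and 45 2-cell counts, a 137-fold rise of the mean of runs that ranged from 80.7 (without 2-cell run 1) to 235 (without oocyte run 1.2). A count of 0 in oocyte run 1.1 allows a share of up to 0.000533%, against 0.0439% and 0.0183% in the 2-cell runs. Both families were left unclassified and lie outside the transposon classes used here. The ranking of ERVL and the calls among transposon counts therefore do not cover them.

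By class and as shares of all counts, LINE elements rose 2.38-fold, SINE elements 2.06-fold and DNA transposons 2.05-fold. SINE elements took 6.78%, 9.85% and 10.4% of the oocyte runs and 18.7% and 18.4% of the 2-cell runs, the closest agreement of the 2-cell runs in any transposon class. LTR elements took 20.1%, 51.0% and 48.7% against 37.0% and 44.9%, with the 2-cell runs inside the oocyte range. Of transposon counts, LTR elements held 53.0%, 71.7% and 66.8% against 40.4% and 54.6%, and LINE elements 27.5%, 12.5% and 16.4% against 35.6% and 20.5%, both with overlap. No transposon class was called on that scale.

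The read files give positions in mm9 for 272199, 1375332 and 474089 lines in the oocyte runs and 236980 and 211961 in the 2-cell runs, each line being the placement of a 25-base read. Starts up to 20 bp apart on a strand were joined into clusters, and numbers of clusters were taken at an equal depth of 211961 lines. A score from 1 to 99 accompanies each line, on a scale that is not stated. Its median was 50, 53 and 35 in the oocyte runs and 24 and 43 in the 2-cell runs. In 2-cell run 1 only 9.65% of lines reached a score of 30, against 60.2% to 73.3% in the oocyte runs and 70.4% in 2-cell run 2. Which repeat or gene each cluster lies in was not analysed here, and the strand given is that of the placement.

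Read starts were spread over more places at the 2-cell stage. The oocyte runs 1.1, 1.2 and 2 had 20109, 17124 and 14253 clusters, and the 2-cell runs 1 and 2 had 52151 and 29778. The mean rose 2.39-fold, with the 2-cell runs well above. It took the 157, 130 and 17 most used clusters to hold 50% of lines in the oocyte runs and 1041 and 284 in the 2-cell runs, a 6.54-fold rise. That rise was 2.80-fold without 2-cell run 1 and 10.3-fold without 2-cell run 2. Clusters of a single line held 5.90%, 4.91% and 4.35% of lines in the oocyte and 14.8% and 8.11% at the 2-cell stage. The 100 most used positions held 27.8%, 27.9% and 50.2% against 24.3% and 29.0%, with overlap.

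With lines of a score of at least 30 alone, the number of clusters had a ratio of 1.83 and that of clusters holding 50% of lines a ratio of 1.78, and neither was called. Without 2-cell run 1 the number of clusters had a ratio of 1.73, also not called. Only 22868 lines of 2-cell run 1 reach this score, and the part of the score in these differences was not tested further.

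**Figure D4:**
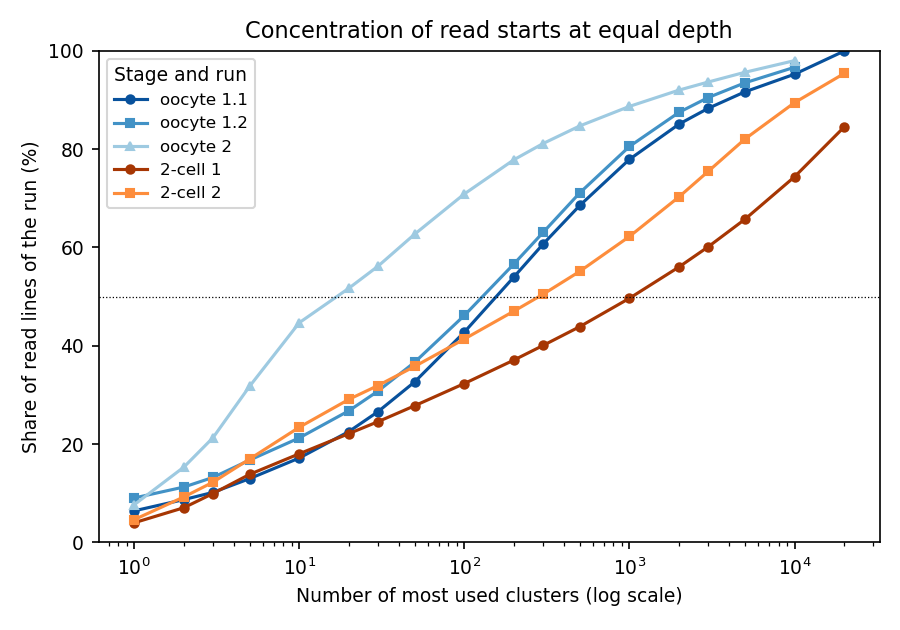
The cumulative share of read lines (%, y axis) is drawn against the number of most used clusters (log scale, x axis) for each run at an equal depth of 211961 lines, with a dotted line at 50%. Oocyte run 2 crosses 50% at 17 clusters, oocyte runs 1.2 and 1.1 at 130 and 157, and 2-cell runs 2 and 1 at 284 and 1041.

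The runs of each stage shared more starts with each other than with the other stage. For each pair of runs the smaller of their shares was taken in every cluster and summed, which gives their overlap. It was 73.3% between oocyte runs 1.1 and 1.2, 15.3% between 1.1 and 2, 16.8% between 1.2 and 2, and 28.8% between the 2-cell runs. The 6 pairs across stages had overlaps from 3.86% to 14.03%, with a mean of 8.00%, so every pair within a stage lay above every pair across. Without 2-cell run 2 the mean across stages was 4.31%. With scores of at least 30 the mean across stages was 9.90%, and the pairs within and across stages were no longer apart. Oocyte runs 1.1 and 2 came from the same sequencing run and overlapped less than runs 1.1 and 1.2, which came from different ones. The labels do not say whether runs 1.1 and 1.2 read the same library. The part of the sequencing run in these overlaps was not tested.

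**Figure D5:**
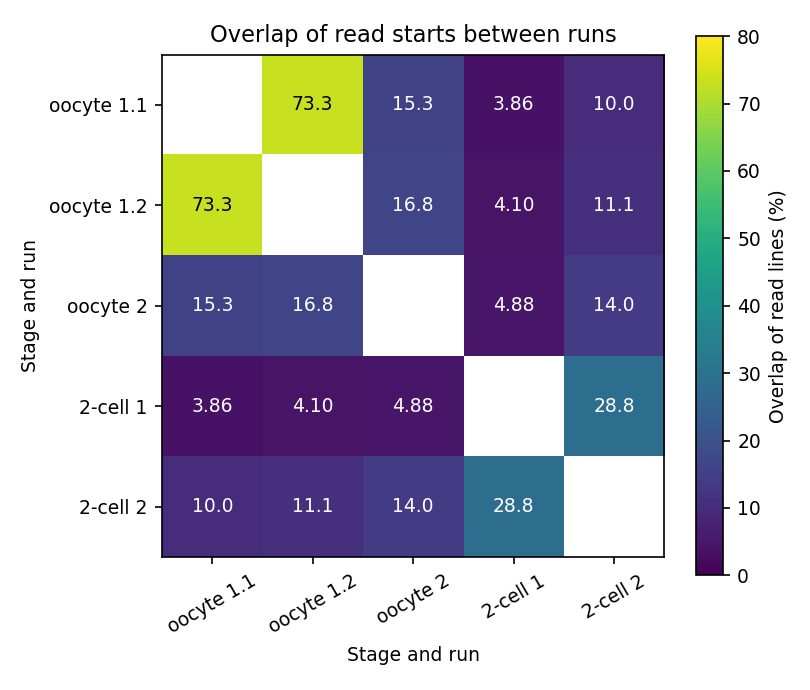
Each cell gives the overlap of read starts (%, colour and number) between a pair of the 5 runs at equal depth, with the runs on both axes. The oocyte pair 1.1 and 1.2 reaches 73.3%, the other pairs within a stage 15.3% to 28.8%, and the pairs across stages 3.86% to 14.03%.

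Few clusters were carried from one stage to the other, and carry-over between runs of 1 stage was not counted in this way. Of the 5216 clusters with at least 10 lines in the 2-cell runs, 10.05% had an oocyte line, and of the 325 with at least 100 lines 37.2% did. Of the 8475 oocyte clusters with at least 10 lines, 6.86% had a 2-cell line, and of the 1845 with at least 100 lines 13.4% did. At equal depth of all runs the shares for at least 10 lines were 8.38% of 2-cell clusters and 10.01% of oocyte clusters. Of all 157567 clusters, 1167 had a line in every oocyte run and none in the 2-cell runs. These 1167 held 10.2%, 9.83% and 6.16% of oocyte lines. A line in every 2-cell run and none in the oocyte runs was found for 5734 clusters, with 29.2% and 29.3% of 2-cell lines. Only 170 clusters had lines in all 5 runs. Without oocyte run 2 the number in the oocyte alone was 13630. With 1 2-cell run left out the number in the 2-cell embryo alone was 28536 or 54483.

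Of 984 clusters with a mean share of at least 0.01%, 260 rose (26.4%) and 144 fell (14.6%). The clusters that rose held 34.2% and 30.3% of the 2-cell lines and at most 0.358% of the lines of an oocyte run, and 177 of them had no oocyte line. The clusters that fell held 19.5%, 22.5% and 29.0% of the oocyte lines and 1.27% and 2.94% of the 2-cell lines, and 88 of them had no 2-cell line. The median span was 6 bp for clusters that rose and 38 bp for clusters that fell. A span here runs from the first to the last start over all runs, not at equal depth. The runs held 2121620 oocyte lines and 448941 2-cell lines, and a span can widen with more lines. The part of line number in this difference was not tested. On chromosome 17, 20 of the 47 clusters tested fell (42.6%) and 9 rose (19.1%). Chromosome 2 held the most clusters that rose, 25 of 76 tested (32.9%), and also the most tested. By share, chromosome 19 was highest with 8 of 16 (50%), then chromosome 3 with 19 of 54 (35.2%) and chromosome 8 with 15 of 44 (34.1%). Of all clusters tested 26.4% rose. Without oocyte run 2 the number that fell was 679, and without 2-cell run 1 the number that rose was 435.

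The most used 2-cell cluster lay on chromosome 8 from 106314888 to 106314898 on the plus strand. It held 3.08% and 4.63% of lines in 2-cell runs 1 and 2 and no line in any oocyte run. Pooled over the 2-cell runs and set against 3 lines over all 2121620 oocyte lines, it was at least 26962-fold higher at the 2-cell stage. A cluster on chromosome X, 6915854 to 6915863 on the plus strand, held 0.311% and 2.99% of 2-cell lines and no oocyte line. With lines pooled in the same way it was at least 11148-fold higher. The bounds do not hold for 2-cell run 1 alone, which had the lower share of lines in both clusters. Both clusters were sharp, with the most used base the same in the 2-cell runs, base 106314894 for the first and base 6915859 for the second.

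A further 3 clusters were led by 2-cell lines alone. On chromosome 13, 117807103 to 117807107 on the plus strand held 0.498% and 0.926% of 2-cell lines and was at least 4950-fold higher. On chromosome 2, 27487631 to 27487634 on the minus strand held 0.258% and 0.919% and was at least 4033-fold higher. On chromosome 17, 31627674 to 31627687 on the minus strand held 0.333% and 0.189% and was at least 1875-fold higher. All 3 clusters spanned at most 14 bp and had no line in any oocyte run. Their bounds also pool the 2-cell runs and do not hold for the lower 2-cell run alone.

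Among the 10 most used 2-cell clusters, others had a trace in the oocyte. The cluster on chromosome 9 from 18036998 to 18037004, plus strand, held 2.90% and 0.533% of 2-cell lines and 0.000367%, 0.000291% and 0.0249% of oocyte lines, a 202-fold rise that was 5219-fold without oocyte run 2, 341-fold without 2-cell run 2 and 62.6-fold without 2-cell run 1. On chromosome 5, 111756039 to 111756048, plus strand, held 0.606% and 2.57% of 2-cell lines, with 2 lines in oocyte run 2 and none in the other oocyte runs. On chromosome 9, 3361146 to 3361164, plus strand, held 2.57% and 0.151% of 2-cell lines and 1, 1 and 8 oocyte lines, and its ratio ran from 214 (without 2-cell run 1) to 6189 (without oocyte run 2). These 3 differ several-fold between the 2-cell runs as well, in both directions. On chromosome 15, 91709985 to 91710000, minus strand, held 0.917% and 1.04% of 2-cell lines and 0, 2 and 47 oocyte lines, a 291-fold rise that was 13433-fold without oocyte run 2 and 194-fold without oocyte run 1.1. All 4 rose in each set of runs for which a ratio could be formed, and the size of each rise changed several-fold when 1 run was left out.

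The cluster on chromosome 11 from 86272577 to 86272587, plus strand, rose 105-fold and also used another base. Without oocyte run 2 the rise was 551-fold. It held 0.00661%, 0.00436% and 0.0751% of oocyte lines and 3.996% and 2.06% of 2-cell lines. In the oocyte runs the most used base was 86272581, with 66.7%, 53.3% and 46.3% of the 18, 60 and 356 lines there. In the 2-cell runs it was 86272586, with 56.7% and 57.9% of 9470 and 4356 lines. The oocyte base held 1.499% and 7.51% of the 2-cell lines, and the 2-cell base held 5.56%, 5% and 2.53% of the oocyte lines. All runs of a stage thus agreed on a base, and the bases of the stages lay 5 bp apart.

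Such a shift was uncommon among the clusters where it could be read. Of 61 clusters with at least 5 lines in every run, the oocyte runs agreed on the most used base in 26, the 2-cell runs in 22 and both sets in 13. In 10 of these 13 the base was the same in both stages, and in 3 it differed. Beside the chromosome 11 cluster these were chromosome 5, 134172171 to 134172185 on the plus strand, with base 134172176 in the oocyte and 134172178 at the 2-cell stage, and chromosome 7, 87852645 to 87852657 on the plus strand, with bases 87852648 and 87852649. The chromosome 5 cluster rested on 6, 51 and 20 oocyte lines, and the chromosome 7 cluster on 18, 18 and 64. These clusters were picked out after their values were seen.

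Agreement on the most used base was itself limited between runs. Oocyte runs 1.1 and 1.2 used the same base in 89.5% of 993 clusters with at least 20 lines in both, at equal depth. Oocyte run 2 did so in 44.55% of 110 clusters with run 1.1 and 42.98% of 114 with run 1.2. The 2-cell runs did so in 60.6% of 335 clusters, and were within 2 bp in 88.1%. Pairs across stages had 35.5% to 48.3% over 29 to 74 clusters, about the level of oocyte run 2 against the other oocyte runs.

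Of the 4 most used oocyte clusters, 3 lay side by side on chromosome 17, minus strand. The 10 kb from 39980000 to 39989999 held 9.98%, 13.6% and 17.0% of oocyte lines and 2.19% and 6.80% of 2-cell lines. Its largest cluster, 39984283 to 39985090, held 6.39%, 8.95% and 4.17% of oocyte lines and 1.08% and 4.62% of 2-cell lines, with 2-cell run 2 above oocyte run 2. Its neighbour at 39984074 to 39984234 fell 4.65-fold, from 1.44%, 1.97% and 3.64% to 0.270% and 0.741%, and had a ratio of 0.115 without 2-cell run 2. The cluster at 39983331 to 39983671 fell 3.72-fold, from 1.43%, 1.72% and 7.69% to 0.740% and 1.201%, and had a ratio of 0.616 without oocyte run 2. With scores of at least 30 the ratios of these neighbours were 0.866 and 0.681, and neither was called.

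Several leading oocyte clusters rested on oocyte run 2. On chromosome 1, 124253748 to 124253798 on the plus strand held 0.243%, 0.534% and 7.62% of oocyte lines and 0.121% and 2.14% of 2-cell lines. Without oocyte run 2 its ratio of 2-cell to oocyte went from 0.404 to 2.91. On chromosome 11, 108873031 to 108873368 on the plus strand held 0.134%, 0.304% and 6.02% against 0.332% and 0.633%, and without oocyte run 2 its ratio went from 0.224 to 2.20. The direction of both clusters thus hung on 1 run. On chromosome 2, 22600594 to 22600628 and 22600397 to 22600425, both on the plus strand, held 4.81% and 2.52% of oocyte run 2 and at most 0.0687% of the other oocyte runs.

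The cluster on chromosome 13 from 97960497 to 97960565, plus strand, fell 18.5-fold. It held 0.330%, 0.347% and 5.76% of oocyte lines and 0.0911% and 0.141% of 2-cell lines, so both 2-cell runs were below every oocyte run. Oocyte run 2 was far above the other oocyte runs, and without it the ratio went from 0.0540 to 0.342, still called as a fall. All 5 runs shared its most used base, 97960504. With scores of at least 30 its ratio was 0.137 with overlapping runs.

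Other leading oocyte clusters rested on runs 1.1 and 1.2. On chromosome 11, 88831587 to 88831617 on the minus strand held 2.31% and 2.19% of these runs, 0.0129% of oocyte run 2, and 0.0865% and 0 of the 2-cell runs. On chromosome 17, 31138893 to 31138995 on the minus strand held 0.821%, 1.81% and 0.0200% of oocyte lines and fell to 0 and 2 lines in the 2-cell runs, too few for a firm fold. In both clusters oocyte run 2 lay far below the other oocyte runs.

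The 5 clusters led by oocyte lines alone were smaller. On chromosome 6, 47504149 to 47504206 on the plus strand held 0.248%, 0.182% and 0.707% of oocyte lines. With oocyte lines pooled over runs, it was at least 461-fold lower at the 2-cell stage, set against 3 lines over all 448941 2-cell lines. On chromosome 15, 80629046 to 80629076 on the minus strand held 0.382%, 0.320% and 0.109% and was at least 420-fold lower. Both were present in every oocyte run, the first highest and the second lowest in run 2. The clusters on chromosome 13 at 74690333 to 74690337, chromosome 7 at 24998117 to 24998281 and chromosome 4 at 25435364 to 25435365 held 0.222% to 0.676% of oocyte runs 1.1 and 1.2 and at most 0.00591% of oocyte run 2. With lines pooled over runs they were at least 734-fold, 613-fold and 354-fold lower at the 2-cell stage. Oocyte run 1.2 gave most of these lines, and oocyte run 2 gave only 13, 28 and 25, so the bounds do not hold for run 2 alone.

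Broad clusters, in which the central 80% of lines covered more than 10 bp, were more frequent in the oocyte. Among clusters with at least 20 lines they made up 11.9%, 11.8% and 24.96% in the oocyte runs and 3.31% and 3.89% in the 2-cell runs, a 4.50-fold fall. Capped transcription can start within a few bases or over a broad stretch, and promoters of both shapes are known. With scores of at least 30 the equal depth was only 22868 lines, and 87 to 207 clusters per run had at least 20 lines. The shares were then 13.7%, 15.5% and 26.4% against 14.9% and 22.0%, a ratio of 0.997. The 2-cell shares rest on 13 and 24 broad clusters. The difference was not seen among these lines, but score and depth changed together and were not separated. With lines of every score the median span of the central 80% of lines was 2 bp in every run except 2-cell run 1, where it was 3 bp.

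Clusters facing another cluster on the opposite strand within 500 bp were also more frequent in the oocyte. They made up 12.6%, 13.6% and 19.6% of clusters with at least 20 lines in the oocyte runs and 2.89% and 4.38% in the 2-cell runs, a 4.21-fold fall. Starts on both strands close together are known from bidirectional promoters. With scores of at least 30 and 22868 lines per run the shares were 11.8%, 13.5% and 20.8% against 8.05% and 3.67%. This was a 2.62-fold fall that rests on 7 and 4 such clusters in the 2-cell runs. Without the densest 10 kb on chromosome 17 they were 11.5%, 10.95% and 17.97% against 2.63% and 3.52%.

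As shares of read lines, chromosomes 8, 9 and Y rose by the rule and chromosome 17 fell. Chromosome 8 held 3.56%, 3.28% and 2.32% of oocyte lines and 6.96% and 8.68% of 2-cell lines, a 2.56-fold rise. Chromosome 9 held 4.22%, 3.54% and 1.46% against 9.16% and 4.64%, a 2.25-fold rise. Chromosome 17 held 13.96%, 18.5% and 19.2% against 5.30% and 9.99%, a 2.25-fold fall. Without its densest 10 kb chromosome 17 held 4.42%, 5.60% and 2.68% against 3.18% and 3.43%, with the runs overlapping. In an alternative chosen after seeing the data, the 17 clusters that were among the 10 most used of either stage were left out. Chromosome 8 then held 4.10%, 3.999% and 4.03% of the remaining oocyte lines and 4.69% and 5.29% of the remaining 2-cell lines, a ratio of 1.23. Chromosome 9 held 4.86%, 4.32% and 2.49% against 4.45% and 5.18%, with overlap, so neither rise was called outside those clusters. Mitochondrial lines were 1.19%, 0.987% and 0.248% against 0.0232% and 0.302%, with overlap. With the same 17 clusters left out they were 1.365%, 1.202% and 0.431% against 0.0280% and 0.396%. The runs were then narrowly apart, and the 4.72-fold fall was called.

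Oocytes carry no Y chromosome, and few lines were placed there. The oocyte runs had 61, 138 and 47 such lines, or 0.0224%, 0.01003% and 0.00991%, and the 2-cell runs 78 and 50, or 0.0329% and 0.0236%. The exact 95% intervals of oocyte run 1.1 (0.0171% to 0.0288%) and of 2-cell run 2 (0.0175% to 0.0311%) overlapped. Of 108 clusters on this chromosome, 58 had oocyte lines alone, 49 had 2-cell lines alone and 1 had both. The oocyte level measures how many lines are placed on a chromosome that these cells lack, and the 2-cell mean was 2.00 times the oocyte mean, which just met the rule. The ratio was 1.825 without the densest 10 kb on chromosome 17 and was then not called.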

How the data were processed

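Per the file headers, each column of the deposited table holds read counts for 47 repeat families in 1 run. The aligner, the repeat annotation and the counting of reads with several placements were not given in the sources used here. Per the submitters' processing notes, the build was mm9 and CASAVA was used. The deposited read files hold 1 placement per line, with strand and a score whose scale the authors did not state in the files. Counts per read line differed between runs, from 0.797 to 2.07, so the table and the read files do not hold the same reads in equal number.

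From these, shares of a run's counts, of the 34 transposon families and of LTR families were computed, and stage values are means of runs with equal weight. Families were put into classes by name. The members, lists and rules were chosen with earlier results of these data known. Named families are the main ones of each class and every family with at least 100 counts called on either scale. Named clusters are the 10 with the largest mean share per stage and the 5 per stage with the largest mean share among those with lines in every run of that stage and none in the other. Pair ratios, cluster shape and the added alternatives were chosen after seeing the data. Intervals cover counting error only. A bound on a fold pools the lines of a stage over its runs, so that deep runs weigh more. It uses 3 lines over all runs of the other stage. Identical lines, 1.64% to 3.86% of a run, were kept. Numbers of clusters, overlaps and shapes used runs thinned with a fixed seed. The call rule was run on simulated data in which the runs of a stage differed by counting error alone. The real runs of a stage differ by more, so this does not give a rate of false calls for these data. Python 3.11.15, numpy 2.4.6, pandas 2.3.3, scipy 1.17.1 and matplotlib 3.10.9 were used.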

Additional observations from a re-analysis of the deposited data

How the results depend on the processing

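No paired analysis was possible because each stage is 1 sample and the run numbers pair nothing across stages. No result changed from risen to fallen or the reverse. Of the families, 15 rose and 4 fell with all counts as the denominator. With transposon counts there were 7 and 1, with size factors 9 and 6, and among families with at least 100 counts 9 rose. Leaving out 1 run gave 14 to 22 risen and 4 to 10 fallen families, with 10 fallen without oocyte run 1.1. The LINE rise (2.38) was not called with transposon counts (1.49), without rRNA (1.89) or with size factors (1.44), and ranged from 1.62 (without 2-cell run 1) to 3.13 with 1 run left out. The SINE rise (2.06) was not called at 1.40, 1.73 and 1.42 in the same order, at 1.99 with pooled counts and at 1.98 with oocyte runs 1.1 and 1.2 averaged first, and ranged from 1.83 (without oocyte run 1.1) to 2.23. The DNA transposon rise (2.05) was not called at 1.47, 1.78 and 1.45, or at 1.86 with those runs averaged, and ranged from 1.59 (without 2-cell run 1), with 1.63 without oocyte run 1.1, to 2.58. RNA genes (0.372) passed as a fall at 0.192 without rRNA, and ranged from 0.195 (without 2-cell run 2), with 0.292 without oocyte run 2, to 0.697.

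With scores of at least 30, clusters found in every run of one stage alone numbered 664 for the oocyte and 1163 for the 2-cell embryo, the ratio of clusters was 1.83, that of clusters holding 50% of lines 1.78, that of broad clusters 0.997, and the overlap across stages 9.90%. Cluster shapes at scores of at least 30 used an equal depth of 22868 lines. With a minimum mean share of 0.005%, 552 clusters rose and 228 fell, and at equal depth 630 clusters were in every oocyte run alone. Leaving out 1 run gave 260 to 435 risen and 132 to 679 fallen clusters, 1214 to 13630 in the oocyte alone (13630 without oocyte run 2, 2138 without run 1.1) and 5765 to 54483 in the 2-cell embryo alone (28536 without 2-cell run 1, 54483 without run 2), since a cluster then has to be present in fewer runs. It gave ratios of 1.73 to 3.03 for clusters and 1.38 to 2.47 for distinct starts (1.93 with all runs). Over 15 named clusters, 163 of 175 alternative values kept their call. The cause of the other changes was not tested, and the count table has no score, so family shares were not limited by score. A count of 3 is a share of 0.000156% in oocyte run 1.2 and 0.00129% in 2-cell run 1.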

Other observations

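Strand balance differed between the runs. Lines on the plus strand made up 44.7%, 41.7% and 55.98% of oocyte runs 1.1, 1.2 and 2 and 54.8% and 52.1% of 2-cell runs 1 and 2, so oocyte run 2 stood with the 2-cell runs. Oocyte run 1.1 stood apart in the count table, with 2.07 counts per read line against 0.797 to 1.40 in the other runs, and oocyte run 2 stood apart in the read starts, where 17 clusters held 50% of its lines. Among the other families with overlapping runs, hAT, a family of DNA transposons, had 0.00941%, 0.0536% and 0.0824% of oocyte counts and 0.0228% and 0.0102% of 2-cell counts. The family named Other had 0.198%, 0.687% and 0.738% against 0.933% and 0.629%, and the family named Unknown had 0.112%, 0.366% and 0.445% against 0.128% and 0.274%.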
